A study of Mus musculus with 6 samples.

Results

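The 10 genes described here encode aldehyde dehydrogenases, enzymes that oxidise aldehydes to carboxylic acids: Aldh1a1, Aldh1a2, Aldh1a3, Aldh1a7, Aldh2, Aldh3a1, Aldh3a2, Aldh3b1, Aldh3b2 and Aldh7a1. They were taken by symbol from a count table of 55487 genes, and were chosen by their known roles in progenitors and epithelium together with their counts and genotype differences in these same mice, so their levels and differences are given as a description. The libraries were made from mammary epithelial cells (MECs) of virgin female BALB/c mice at 10 weeks of age, with 3 wild-type (WT) mice and 3 IL-21isoTg mice and 1 library per mouse. IL-21isoTg mice carry a transgene for a membrane-bound isoform of the cytokine interleukin-21 that is active specifically in T cells. The mice of both genotypes were at mixed stages of the oestrous cycle. MECs were enriched with magnetic beads that took away leukocytes (by CD45), endothelium (by CD31) and fibroblasts (by CD140a), and the RNA was selected for poly(A) tails.

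The family divides by substrate. ALDH1A1, ALDH1A2 and ALDH1A3 convert retinal, the aldehyde form of vitamin A, into retinoic acid, which binds nuclear receptors and controls differentiation. ALDH2 works in mitochondria on small aldehydes such as acetaldehyde, the ALDH3 enzymes oxidise fatty and aromatic aldehydes, and ALDH7A1 acts in the breakdown of lysine. In the mammary gland, high aldehyde dehydrogenase activity in a fluorescent substrate assay is widely used to enrich progenitor cells of the luminal layer, and Aldh1a3 is a well-known transcript of luminal progenitors.

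The enzymes share a catalytic cysteine in a conserved stretch of coding sequence. It is shown here because the members differ widely in level but encode the same reaction centre, and because closely related copies must be told apart by their reads. The following windows of 36 coding bases from the GENCODE M21 transcripts (GRCm38, sense strand of the gene) each lie within 1 exon, with the codon of the catalytic cysteine in capitals.
Aldh1a1, chr19:20630701-20630736, plus strand, codon 303: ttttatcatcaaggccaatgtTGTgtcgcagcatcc
Aldh1a7, chr19:20708264-20708299, minus strand, codon 303: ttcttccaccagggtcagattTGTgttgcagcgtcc
Aldh1a2, chr9:71283413-71283448, plus strand, codon 320: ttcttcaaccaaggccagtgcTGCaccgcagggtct
Aldh1a3, chr7:66406088-66406123, minus strand, codon 314: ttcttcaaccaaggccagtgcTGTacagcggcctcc
Aldh2, chr5:121572790-121572825, minus strand, codon 321: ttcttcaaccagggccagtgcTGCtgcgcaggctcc
Aldh3a1, chr11:61215509-61215544, plus strand, codon 244: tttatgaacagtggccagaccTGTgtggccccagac
Aldh3b1, chr19:3918808-3918843, minus strand, codon 244: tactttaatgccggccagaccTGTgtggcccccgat
Aldh3b2, chr19:3979376-3979411, plus strand, codon 257: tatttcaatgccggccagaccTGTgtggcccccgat

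Aldh1a1 and Aldh1a7 lie close together on chromosome 19 in opposite orientation, at 20492715 to 20643465 and at 20692953 to 20727562, and their coding sequences aligned with 91.6% identical bases over 1503 positions. Aldh3b1 and Aldh3b2 form a separate pair on chromosome 19, at 3913491 to 3929808 and at 3972328 to 3981646. Their coding sequences were 80.9% identical over 1444 positions, and Aldh1a1 was 66.5% identical to Aldh1a3 and 47.1% to Aldh3a1. No stretch of 150 bases, the length of 1 read, of Aldh1a1 or Aldh1a7 occurred in the transcripts of another gene, whereas 6.82% of such windows in Aldh3b2 also occurred in Aldh3b3. Aldh3b3, a further member of the family, held 0 to 5 counts per library.

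The other members lie on other chromosomes than these pairs, at positions that are the same in the deposited files and in GENCODE M21 (GRCm38). Aldh3a1 (chr11:61207537-61218421, plus strand) and Aldh3a2 (chr11:61223417-61267464, minus strand) are neighbours on chromosome 11. Aldh2 spans chr5:121566027-121593824 and Aldh1a3 chr7:66390890-66427517, both on the minus strand, and Aldh1a2 spans chr9:71215789-71296243 on the plus strand. The merged exons of the 10 genes measured between 1942 bases (Aldh3a1) and 5619 bases (Aldh3a2). The neighbours Aldh3a1 and Aldh3a2 were 56.8% identical in coding sequence.

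The likeness of Aldh1a1 and Aldh1a7 extended into the DNA before their start sites. The 90 bases from 100 to 11 before the RefSeq start (GRCm38.p6) of the Aldh1a1 transcript that begins inside the gene and of Aldh1a7 were identical at 84 positions and differed at 6, which are in capitals.
Aldh1a1, chr19:20601868-20601957, plus strand: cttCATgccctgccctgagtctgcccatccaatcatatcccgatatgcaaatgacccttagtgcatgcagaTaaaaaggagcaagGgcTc
Aldh1a7, chr19:20727567-20727656, minus strand: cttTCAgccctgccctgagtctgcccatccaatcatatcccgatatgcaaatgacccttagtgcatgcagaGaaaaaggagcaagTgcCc
In the 150 bases farther from the start, 35 positions were identical in a comparison without gaps, which an inserted or lost base can put out of register. With gaps allowed, the whole 300-base promoters were identical at 221 of 315 aligned positions. Where the likeness ends is therefore not shown. Both 300-base promoters held the letters CCAAT, searched on both strands, as did 37.4% of 32851 mouse promoters of that length. The letters TATAAA, held by 13.6% of those promoters, were found in that of Aldh1a7 and not in that of Aldh1a1. The first start of Aldh1a1, farther upstream, gave 50.6% identity to the Aldh1a7 promoter over aligned positions with gaps counted, against 70.2% for the start shown. Promoter entries were matched for 5 of the 10 members (Aldh1a1, Aldh1a2, Aldh1a7, Aldh3a2 and Aldh3b1).

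The libraries held between 15902886 and 25719244 counts. In all 6, every one of 6 epithelial markers shared by MECs (among them Epcam and Krt8) was detected, with a summed level of 4810 to 8390 CPM (counts per 1e6 of a library's size after TMM scaling, a correction for library composition), and all 8 luminal progenitor markers were detected (998 to 5789 CPM in sum). Salivary gland transcripts, which include those of amylase (Amy1) and Bpifa2, took 21.6%, 6.34% and 14.8% of all counts in WT 1, 2 and 3 and 21.1%, 4.71% and 38.3% in IL-21isoTg 1, 2 and 3. Of the 14 genes on that list, 12 were tested, and its saliva genes Muc19 and Smgc were at 0 in most libraries. The markers of the depleted types were not at 0: fibroblast markers summed to 1988 to 3540 CPM in WT and 4414 to 5094 CPM in IL-21isoTg, endothelial markers to 58.2 to 152 and 98.6 to 260 CPM, and leukocyte markers to 15.4 to 31.8 and 22.4 to 32.8 CPM. Il21, the gene of the transgene's product, had 795, 216 and 131 counts in the IL-21isoTg libraries and 0, 0 and 37 in WT 1, 2 and 3. The library labelled WT 3 thus carried some Il21 reads, and its 8 milk protein genes summed to 1733 CPM against 538 and 523 CPM in the other WT libraries and 8818 to 20366 CPM in IL-21isoTg. In such bulk samples, fewer cells of a type and less RNA per cell cannot be told apart.

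Per length of exon, 4 genes carried most of the aldehyde dehydrogenase mRNA. Aldh2 was highest, at 39.7 ± 4.81 CPM per kb of exon (SD, n = 6), followed by Aldh7a1 at 24.1 ± 10.9, Aldh1a3 at 21.8 ± 11.7 and Aldh3a2 at 17.1 ± 4.98 CPM per kb. These 4 made up between 72.5% and 87.9% of the summed CPM per kb of the 10 genes. Aldh3a1 (8.34 ± 8.91 CPM per kb), Aldh3b2 (8.12 ± 6.40) and Aldh3b1 (4.40 ± 1.95) formed a middle range. Aldh1a1 (2.76 ± 1.18), Aldh1a7 (1.54 ± 0.434) and Aldh1a2 (0.194 ± 0.138 CPM per kb) were the lowest. The place of Aldh1a1 below Aldh3b1 depends on the merged exons, which measured 4937 and 2046 bases. Without division by length, Aldh1a1 had means of 10.5 (WT) and 16.8 CPM (IL-21isoTg), and Aldh3b1 of 10.4 and 7.65 CPM.

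The order of neighbouring genes was seldom fixed from mouse to mouse. The ranges of each gene and the next one down overlapped for every pair of neighbours except Aldh1a7 and Aldh1a2, where the lowest library of Aldh1a7 (1.03 CPM per kb) lay above the highest of Aldh1a2 (0.411). Aldh2 exceeded Aldh7a1 in 5 of the 6 libraries, and the exception was IL-21isoTg 3. Aldh3a1 exceeded Aldh3b2 in 3 of 6.

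**Figure D1:**
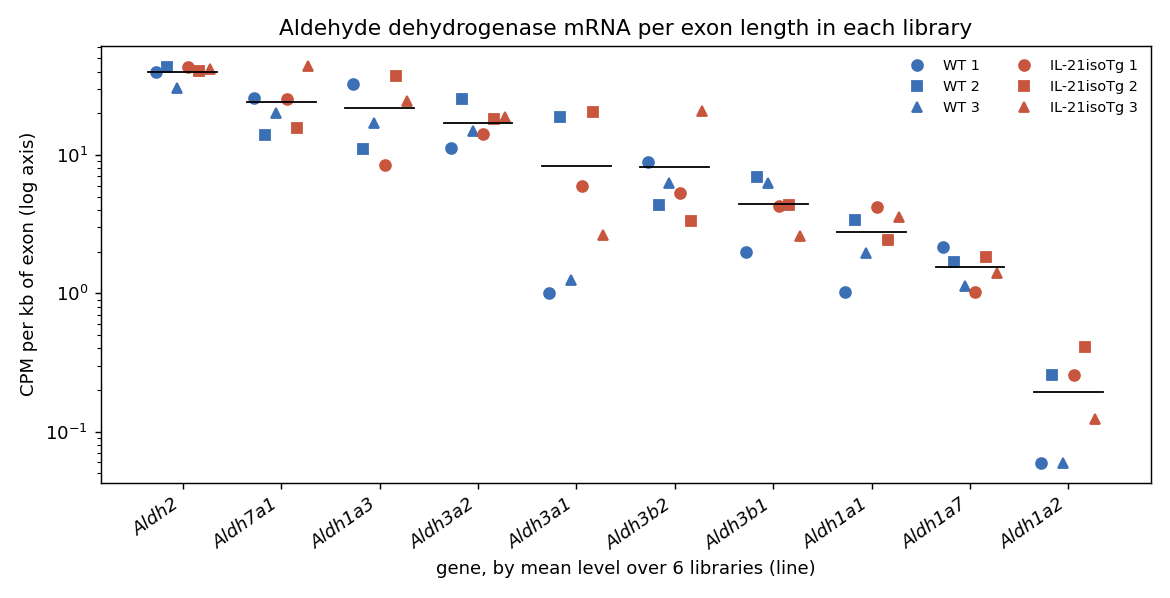
CPM per kb of exon (log axis) of the 10 aldehyde dehydrogenases in each of 3 WT (blue) and 3 IL-21isoTg (red) libraries, ordered by the mean over 6 libraries (black line). Aldh2 stays within 30.3 to 43.2 CPM per kb, whereas Aldh3a1 spans 0.999 to 20.5 CPM per kb, with high points in both genotypes.

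Among the 4 ALDH1A genes, Aldh1a3 was the main transcript in every library. Its level was 150.5, 50.8 and 78.0 CPM in WT 1, 2 and 3 and 39.0, 172 and 113 CPM in IL-21isoTg 1, 2 and 3. The lowest and the highest library were both IL-21isoTg, and the WT range lay between them. Its genotype difference was 0.21 ± 0.55 on the log2 scale (IL-21isoTg minus WT, ± SE). It gave 60.6% to 90.9% (median 83.6%) of the summed CPM per kb of the 4 ALDH1A genes.

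Aldh1a1, the member most often named as a stem cell marker in human tissues, was far lower than Aldh1a3 in these mouse cells. It stood at 5.05, 16.8 and 9.58 CPM in WT and 20.7, 12.0 and 17.6 CPM in IL-21isoTg. WT 1 was the lowest library and IL-21isoTg 1 the highest, with overlap between the groups, and the difference was 0.68 ± 0.42 (log2), or 0.36 without WT 1 and 1.20 without WT 2. Per kb, Aldh1a3 exceeded Aldh1a1 by 2.01-fold in IL-21isoTg 1 and by 31.9-fold in WT 1. In WT 1 Aldh1a3 was high and Aldh1a1 was low, and in IL-21isoTg 1 the reverse held.

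Aldh1a7, a rodent copy of Aldh1a1, was detected in every library despite the close likeness to Aldh1a1 shown above. Its levels were 4.47, 3.46 and 2.34 CPM in WT and 2.12, 3.80 and 2.89 CPM in IL-21isoTg, from 31 to 102 counts, with a difference of -0.22 ± 0.39 (log2). It did not follow Aldh1a1: the ratio of Aldh1a1 to Aldh1a7 per kb was 0.473 in WT 1 and 4.09 in IL-21isoTg 1. Only in WT 1 was Aldh1a7 higher per kb, and there it was lower in CPM (4.47 against 5.05 for Aldh1a1). The ratio per kb depends on the merged exons, which measured 4937 bases from 6 transcripts for Aldh1a1 and 2066 bases from 1 for Aldh1a7. How the authors counted reads that align to both copies is not given in the sources used here, but by the windows above a full-length read of either copy has no exact match in the other.

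Aldh1a2, the retinal dehydrogenase of the embryo and of many stromal cells, was close to the floor of detection. It had 3, 12 and 3 counts in WT and 14, 25 and 3 counts in IL-21isoTg, where 3 counts were taken as the floor. The fitted difference of 1.13 ± 0.80 (log2) rests on these counts, and ran from 0.66 without IL-21isoTg 2 to 2.14 without WT 2. WT 1, WT 3 and IL-21isoTg 3 were at the floor, and the highest WT library (0.577 CPM) nearly matched IL-21isoTg 1 (0.582 CPM).

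Aldh2 was the most even member. It measured 204, 219 and 155 CPM in WT and 221, 205 and 215 CPM in IL-21isoTg. The 3 IL-21isoTg libraries lay inside or just above the WT range, and WT 3 was the lowest. The SD of its log2 CPM over 6 libraries was 0.19, which put it at the 17.5th percentile of all genes tested for spread. The difference was 0.15 ± 0.18 (log2).

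The 4 ALDH3 genes behaved differently from one another. Aldh3a2, the fatty aldehyde dehydrogenase of the endoplasmic reticulum, was present at 62.5, 143 and 83.4 CPM in WT and 78.9, 103 and 106 CPM in IL-21isoTg. It supplied 39.4% to 51.9% of the summed CPM per kb of the ALDH3 genes. WT 1 and WT 2 bounded the range and the IL-21isoTg libraries lay between them, with a difference of -0.01 ± 0.30 (log2).

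Aldh3a1, known as an abundant enzyme of the cornea and as a member of the gene battery driven by the aryl hydrocarbon receptor (Ahr), was the most variable. It stood at 1.94, 36.4 and 2.43 CPM in WT and at 11.6, 39.7 and 5.13 CPM in IL-21isoTg, from 43 to 1067 counts. One library of each genotype, WT 2 and IL-21isoTg 2, was high, and the highest exceeded the lowest 20.5-fold. The SD of its log2 CPM, 1.87, was at the 99.4th percentile of all genes tested. It gave 44.1% of the ALDH3 sum per kb in IL-21isoTg 2 but 4.35% in WT 1. Its difference of 0.48 ± 1.14 (log2) had no settled direction: it was 3.12 without WT 2 and -0.68 without IL-21isoTg 2. It was 1.54 with limma-voom and 1.46 with the salivary share as a term.

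Aldh3b1 and Aldh3b2 encode enzymes for long-chain aldehydes. Aldh3b1 was at 4.06, 14.3 and 12.7 CPM in WT and at 8.73, 8.90 and 5.32 CPM in IL-21isoTg, and WT held both extremes, with a difference of -0.43 ± 0.46 (log2) that ran from -0.80 to -0.13 with 1 mouse left out. Aldh3b2 was at 19.0, 9.32 and 13.5 CPM in WT and at 11.4, 7.07 and 44.1 CPM in IL-21isoTg. IL-21isoTg 3 stood well above the other 5 libraries. The Aldh3b2 difference of 0.57 ± 0.63 (log2) became -0.58 without that library. Per kb, Aldh3b2 was 7.93-fold the level of Aldh3b1 in IL-21isoTg 3 and 0.624-fold in WT 2.

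Aldh7a1 (chr18:56509687-56572951, minus strand) was at 134, 71.8 and 104 CPM in WT and at 130, 81.6 and 228 CPM in IL-21isoTg. IL-21isoTg 3 was again the highest library, while the other 2 IL-21isoTg libraries lay inside the WT range. The difference of 0.50 ± 0.38 (log2) was 0.047 without IL-21isoTg 3. Its exons share 300 bases with Phax on the opposite strand, and Phax was even across libraries at 23.6 to 34.5 CPM. Whether counting used the strand is not given in the sources used here, so reads from those shared bases cannot be told apart. With both strands searched, 1.41% of the 150-base windows of Aldh7a1 also occurred in Phax or a pseudogene.

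**Figure D2:**
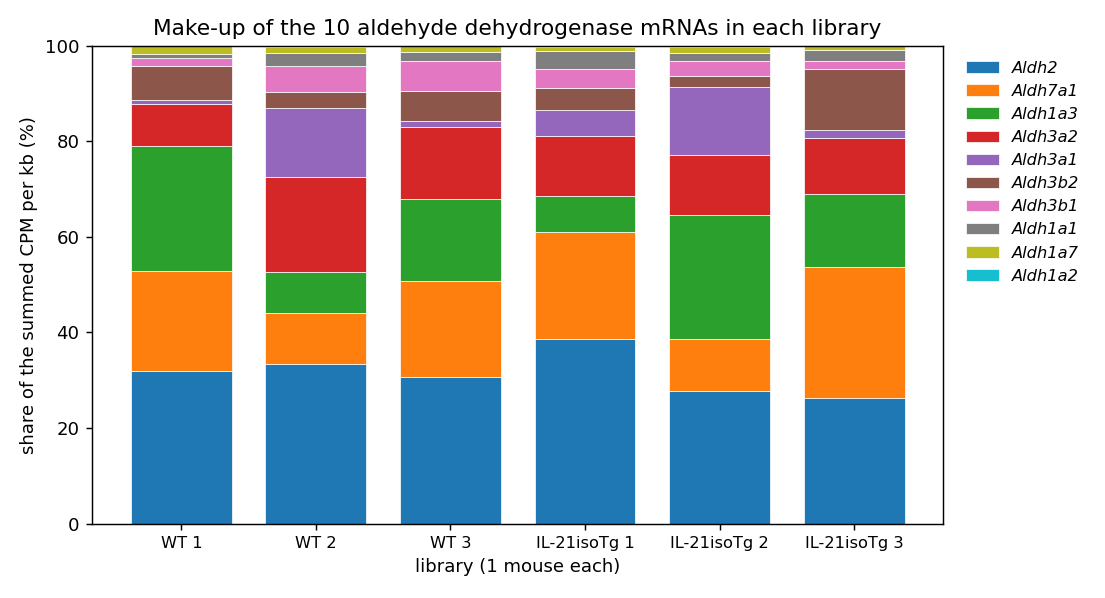
Share (%) of the summed CPM per kb of the 10 aldehyde dehydrogenases taken by each gene, with 1 bar per library and genes stacked in order of mean level. Aldh2 takes 26.2% to 38.6% of every bar, while Aldh1a3 takes from 7.54% in IL-21isoTg 1 to 26.2% in WT 1, and the 2 libraries numbered 2 have the widest Aldh3a1 bands.

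The genotype comparison gave no member a difference beyond the spread between mice. All 10 genes passed the filter on low counts. At an adjusted p under 0.05 in edgeR's quasi-likelihood test, 0 of the 10 were called, beside 0% of the 17165 genes tested, and their adjusted p-values ran from 0.816 to 0.998. At an unadjusted p under 0.05, 0 of the 10 were called, beside 5.82% of all genes, and 0 of the 10 had groups that did not overlap in CPM, beside 12.1% of all genes. DESeq2 called 0.466% of genes and edgeR's likelihood ratio test 0.379%, and neither called a member. Of the 10 differences, 7 were above 0 and 3 below, where 47.9% of all genes tested were above 0, with a median of 0.35 (log2) beside -0.019 over all genes. With 3 mice against 3, an exact permutation test of a single gene cannot give a two-sided p below 0.1, and a difference within these errors is not shown to be absent.

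**Figure D3:**
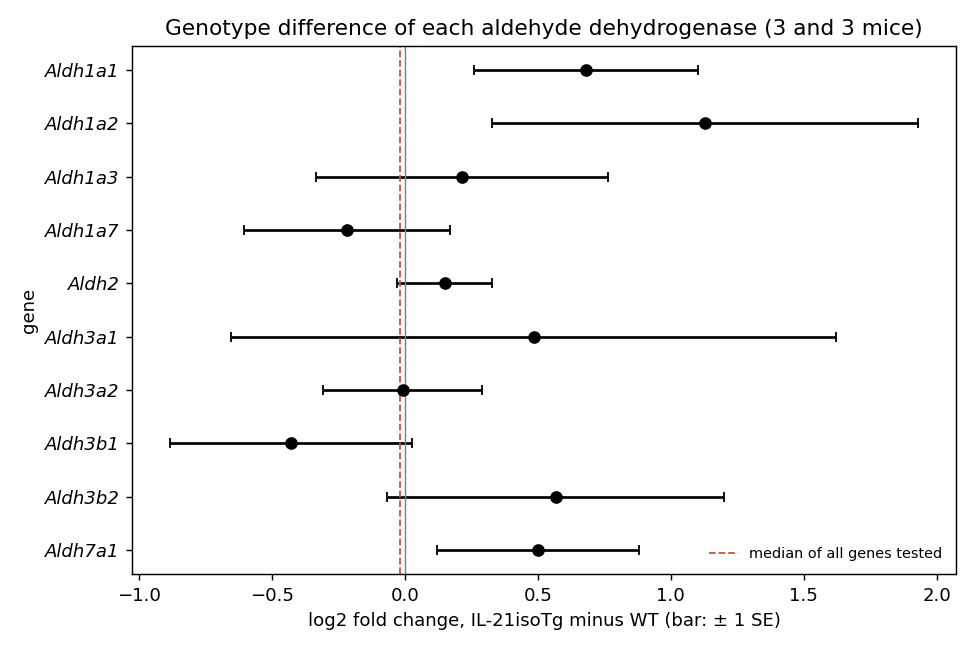
Log2 fold change (IL-21isoTg minus WT, 3 and 3 mice) of each aldehyde dehydrogenase from the edgeR fit, with bars of ± 1 SE and a dashed line at the median of all genes tested (-0.019). The values run from -0.43 for Aldh3b1 to 1.13 for Aldh1a2, and the widest bar is that of Aldh3a1 (SE 1.14).

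Several members put the 6 libraries in nearly the same order as a list of cell type or tissue markers. The summed CPM of 10 marker lists was set beside each gene, and it was counted in how many of the 15 pairs of libraries the gene and the list had the same order. The adipocyte and endothelial lists put the libraries in the same order and count once, which leaves 9 lists. The other lists move together in part and the 6 libraries are few, so these counts are a description. At least 13 of 15 pairs had the same order in 13 of 90 combinations of a member and a list, beside a mean of 4.33% over all genes tested, and 2 or fewer pairs in 0, beside 3.48%. Aldh7a1 and Aldh3b2 each ordered 13 of 15 pairs as the salivary gland list did, a level of agreement reached by 5.51% of all genes tested. The salivary list summed to 40381 CPM in IL-21isoTg 2, where Aldh3b2 was lowest, and to 568687 CPM in IL-21isoTg 3, where both genes were highest. With the salivary share as a term in the fit, the genotype difference of Aldh7a1 was 0.25 and that of Aldh3b2 -0.02 (log2), instead of 0.50 and 0.57. What share of their reads came from salivary tissue was not tested.

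Aldh1a3 ordered 14 of 15 pairs as the 6 shared epithelial markers did, and 3.36% of all genes reached at least 13. The epithelial markers summed to 4810 CPM in IL-21isoTg 1, where Aldh1a3 was lowest, and to 8390 CPM in IL-21isoTg 2, where it was highest. Against the luminal progenitor list Aldh1a3 had the same order in 6 of 15 pairs. Aldh3a1 and Aldh1a2 each followed the luminal progenitor list in 14 of 15 pairs, beside 4.56% of all genes at 13 or more. That list was lowest in WT 1 (998 CPM) and highest in IL-21isoTg 2 (5789 CPM), as was Aldh3a1. The sum is weighted to its most abundant markers, such as Ltf at 143 and 2343 CPM in those libraries. The list also includes the casein gene Csn3, so its sum is not a measure of progenitor cells alone. In the edgeR test, 3 of its 8 genes were higher in IL-21isoTg at an unadjusted p under 0.05, beside 5.82% of all genes in either direction. Kit was also lowest in WT 1 (84.8 CPM) and highest in IL-21isoTg 2 (298 CPM). Itga2 was highest in WT 1 (54.1 CPM), so the markers of the list did not all move alike. Both genes also followed the shared order of the adipocyte and endothelial lists in 13 of 15 pairs, beside 5.48% of all genes. For Aldh1a2, WT 1, WT 3 and IL-21isoTg 3 each held 3 counts, the floor. Their order in CPM therefore reflects library size alone.

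Aldh1a1 had its closest match, 14 of 15 pairs, in the fibroblast list, beside 4.74% of all genes at 13 or more, and had the same order as the shared epithelial list in 3 of 15 pairs. Fibroblast markers were lowest in WT 1 (1988 CPM) and highest in IL-21isoTg 1 (5094 CPM), the same libraries that bounded Aldh1a1. Aldh3b1 followed the hormone-sensing luminal list in 13 of 15 pairs, beside 4.32% of all genes. Aldh2 and Aldh1a2 followed the basal list in 13 and 14 pairs, beside 3.56% of all genes at 13 or more, with the same limit at the floor for Aldh1a2. Aldh7a1 and Aldh3b2 also followed the leukocyte list in 13, beside 5.1% of all genes, although that list summed to no more than 32.8 CPM. For Aldh1a7 and Aldh3a2 no list reached 13 pairs, and the highest count was 11 for each. The part of cell makeup in any of these levels was not tested.

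**Figure D4:**
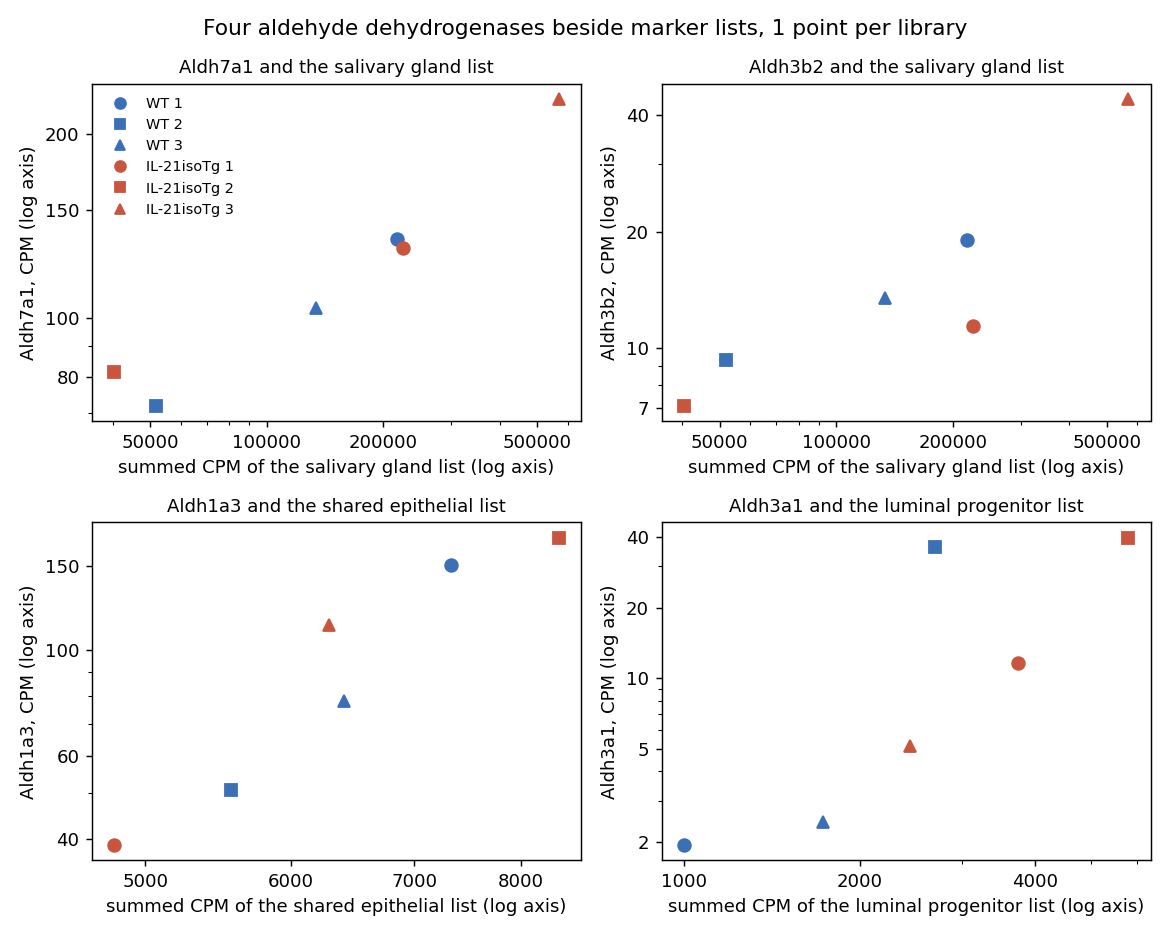
CPM of Aldh7a1, Aldh3b2, Aldh1a3 and Aldh3a1 against the summed CPM of a marker list (both axes log), with 1 point per library, WT in blue and IL-21isoTg in red. Aldh7a1 is at 228 CPM where the salivary list is highest, Aldh1a3 runs from 39.0 to 172 CPM with the epithelial list, and Aldh3a1 is high in WT 2 and IL-21isoTg 2.

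For the 4 members named by the rule on patterns (Aldh1a3 and the 3 with the largest spread), the genes most alike over the 6 libraries were those with the smallest root mean square difference of centred log2 CPM. Aldh1a3 was nearest to Gm44958 (0.16, from 3 to 23 counts), Sgms2 (0.19) and Lif (0.30), which encode an uncharacterised transcript, a sphingomyelin synthase and the cytokine leukemia inhibitory factor. Lif ran from 247 CPM in IL-21isoTg 1 to 631 CPM in WT 1. Aldh3b2 was nearest to Pla2g3, a secreted phospholipase (0.12), Kyat3 (0.14) and the keratin gene Krt23 (0.18), and all 3 were highest in IL-21isoTg 3, as in Krt23 at 109 CPM against 17.2 to 39.6 CPM elsewhere.

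Aldh1a2, at its few counts, was nearest to 3 genes known from blood vessels, Ptprb (0.19), Sema3g (0.22) and Ramp2 (0.24). Ptprb ranged from 10.2 CPM in WT 1 to 43.4 CPM in IL-21isoTg 1. The genes closest to Aldh3a1 were B3gnt7 (0.68), Olfm4 (0.69) and Ly6m (0.75). The distance is not scaled to a gene's own spread, and the SD of log2 CPM was 1.87 for Aldh3a1 against 0.93 for Aldh3b2. Distances of different members therefore cannot be compared as degrees of likeness. B3gnt7, a glycosyltransferase gene, was at 43.1 CPM in WT 2 and 25.8 CPM in IL-21isoTg 2 and at 3.43 to 9.31 CPM in the other libraries.

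The 11 other genes of the superfamily added little contrast. The 10 members carried 62.0% to 73.5% of the summed CPM per kb of all 21. Of the 11, 9 were tested, 8 had a difference above 0 and 0 were called at an adjusted or an unadjusted p under 0.05. The 2 with the smallest p were Aldh18a1, which makes a precursor of proline, and Aldh1l2, a mitochondrial enzyme of folate metabolism. Aldh18a1 was at 82.7, 51.7 and 81.8 CPM in WT and 86.0, 62.1 and 163 CPM in IL-21isoTg (log2 difference 0.52 ± 0.36, edgeR adjusted p = 0.827). Aldh1l2 was at 24.1, 10.7 and 27.4 CPM in WT and 35.3, 8.41 and 84.1 CPM in IL-21isoTg (1.03 ± 0.71, edgeR adjusted p = 0.827). Both were highest in IL-21isoTg 3 and lowest in the libraries numbered 2, as were Aldh7a1 and Aldh3b2.

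Genes that supply retinal to the ALDH1A enzymes or respond to retinoic acid were read from 5 lists. Of 7 tested genes for retinoid uptake and storage, 0 were called, 4 differences were above 0, and the 2 with the smallest p were Ttr, the transthyretin carrier of retinol-binding protein, and Lrat, which esterifies retinol. Ttr was at 3.07, 1.59 and 7.06 CPM in WT and 23.7, 1.49 and 21.2 CPM in IL-21isoTg (log2 difference 1.97 ± 0.91, edgeR adjusted p = 0.809). Lrat held 3 to 25 counts per library.

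Of 11 tested genes for the oxidation of retinol and the reduction of retinal, 0 were called and 4 differences were above 0. Rdh10, the main retinol dehydrogenase that supplies retinal, was at 36.8, 34.0 and 29.6 CPM in WT and 28.9, 58.3 and 59.1 CPM in IL-21isoTg (log2 difference 0.54 ± 0.27, edgeR adjusted p = 0.809). IL-21isoTg 1 lay below every WT library and the other 2 IL-21isoTg libraries above them. Rdh5 was at 2.03 to 3.51 CPM in WT and 1.53 to 2.24 CPM in IL-21isoTg (-0.53 ± 0.38).

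The genes that carry and degrade retinoic acid gave 0 calls among 4 tested. Cyp26b1, which degrades retinoic acid and is itself a target of it, was at 4.33, 5.96 and 4.50 CPM in WT and 10.1, 5.96 and 5.78 CPM in IL-21isoTg (log2 difference 0.56 ± 0.31, edgeR adjusted p = 0.809). The carrier gene Crabp2 was at 13.6 to 28.4 CPM in WT and 17.2 to 49.6 CPM in IL-21isoTg (0.47 ± 0.44). Of 5 tested receptors, 0 were called and 1 had groups that did not overlap, beside 12.1% of all genes tested. Rxrb had groups that did not overlap, at 45.6 to 46.9 CPM in WT and 52.5 to 60.7 CPM in IL-21isoTg (0.25 ± 0.14, edgeR adjusted p = 0.809), and Rarg was at 42.0 to 73.6 and 44.7 to 63.4 CPM. Of 10 tested target genes of retinoic acid, 7 differences were above 0, 0 were called, and the median was 0.49 (log2). Besides Cyp26b1, the one with the smallest p was Rarres1, at 7 to 25 counts in WT and 10 to 49 in IL-21isoTg (1.13 ± 0.77).

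The Ahr gene battery, to which Aldh3a1 is known to belong, and targets of the oxidative stress factor Nrf2 gave 0 calls among 14 tested, with 7 differences above 0 and 7 below. Gclm, a subunit of the enzyme for glutathione synthesis, was the only 1 of the 14 with an unadjusted p under 0.05, beside 5.82% of all genes tested. Gclm was at 61.4, 65.7 and 55.1 CPM in WT and 39.0, 51.7 and 45.5 CPM in IL-21isoTg (log2 difference -0.42 ± 0.16, edgeR adjusted p = 0.809). Every WT library lay above every IL-21isoTg library, which made Gclm the only 1 of the 14 with groups that did not overlap, beside 12.1% of all genes. The next by p, the heme oxygenase gene Hmox1, differed in the other direction, at 43.5, 17.3 and 29.2 CPM in WT and 33.7, 40.1 and 115 CPM in IL-21isoTg (1.07 ± 0.51, edgeR adjusted p = 0.809), with its highest value in IL-21isoTg 3. Cyp1a1 and Nqo1, singled out after their values were seen as the best-known genes of the battery, were at 0.577 to 4.63 and 4.20 to 11.3 CPM over the 6 libraries. Cyp1a1 was lowest in WT 2, where Aldh3a1 was high, and Nqo1 was highest in WT 2 and next highest in IL-21isoTg 2.

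Other enzymes that act on aldehydes or alcohols gave 0 calls among 11 tested, and 9 of the 11 differences were below 0. Xdh, xanthine dehydrogenase, which also surrounds the fat droplets of milk, was the exception in size. It was at 49.7, 95.7 and 129.5 CPM in WT and 394, 316 and 301 CPM in IL-21isoTg, with a log2 difference of 1.88 ± 0.33 (edgeR adjusted p = 0.412). Every IL-21isoTg library lay above every WT library, which made Xdh the only 1 of the 11 with groups that did not overlap, beside 12.1% of all genes. The next by p, Akr1b8, was at 10.5, 15.3 and 11.2 CPM in WT and 6.78, 12.5 and 9.79 CPM in IL-21isoTg (-0.35 ± 0.29). The milk protein genes were higher in the same IL-21isoTg libraries as Xdh, as given above, and their part in the Xdh difference was not tested.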

How the data were processed

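Poly(A)-selected RNA of MECs from 3 WT and 3 IL-21isoTg mice was sequenced as 150-bp paired-end reads from a directional kit. The authors deposited whole-number read counts per gene and mouse, without normalization. The submitters' processing notes name Trimmomatic 0.38, HISAT2 2.1.0, featureCounts 1.6.3, DESeq2 1.24.0 and mm10, but the strand setting and the treatment of reads with several alignments are not given in the sources used here. A size-factor-scaled copy of the counts and the authors' own fold changes and p-values were not used.

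Counts were filtered with filterByExpr (minimum count 10, total 15), scaled with TMM and compared by genotype with edgeR 4.0.16 (quasi-likelihood test, robust dispersions), with Benjamini-Hochberg adjustment over 17165 genes. DESeq2 1.42.0 and limma 3.58.1 gave alternatives, and R 4.3.3, Python 3.11.15, Biopython 1.88 and matplotlib 3.10.9 were used. CPM are counts per 1e6 of the TMM-scaled library size, and CPM per kb divides them by the union of exons in GENCODE M21. Log2 CPM used a prior count of 2. The floor of 3 counts equals 0.112 to 0.280 CPM and covers counting error only. The fit was tested on simulated counts.

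The members, gene lists and markers were chosen with earlier results of these data known. Named besides the members are, in each list on aldehydes or retinoids, the genes with an unadjusted p under 0.05 or, where fewer than 2, the 2 with the smallest p, and the 3 genes most alike to each of 4 members. Each library is 1 mouse, so p-values set the genotype difference against the spread between mice, which the fit estimates partly from all genes together.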

Additional observations from a re-analysis of the deposited data

How the results depend on the processing

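The genotype comparison called 0 genes higher and 0 lower. Genes called higher numbered 14 without a filter on low counts, 72 with the DESeq2 Wald test, 52 with edgeR's likelihood ratio test and 0 to 6 when 1 mouse was left out (6 without WT 3). Genes called lower numbered 8 with the DESeq2 Wald test, 13 with the likelihood ratio test, 1 with the salivary share as a covariate (an alternative chosen after seeing the data) and 0 to 0 with 1 mouse left out. No member was called under any of the 16 alternative settings (15 for Aldh1a2, which a minimum of 10 counts in every library leaves out), and the lowest adjusted p was 0.560. Direction reversed for 5 members, and the cause was not tested. With 1 mouse left out, Aldh1a3 ran from -0.30 to 0.75 (log2), Aldh1a7 from -0.46 to 0.029, Aldh3a1 from -0.68 to 3.12, Aldh3a2 from -0.23 to 0.39 and Aldh3b2 from -0.58 to 0.99. Aldh3a2 was 0.0087 with DESeq2's size factors, 0.023 without salivary and milk genes in the scaling, 0.0088 with the DESeq2 Wald test, 0.067 with limma-voom, 0.068 with the replicate block and 0.11 with the salivary covariate. Aldh3b2 was -0.054 with limma-voom and -0.0195 with the salivary covariate. The other 5 members kept their direction under the settings run on them, and the median of the 10 ran from 0.058 to 0.54 with 1 mouse left out. Mice with the same number did not deviate together (r = -0.22, 0.068 and -0.062), and the replicate block gave 1.21 for Aldh3a1 (main value 0.48), a median of 0.17 and 0 genes called in either direction. Depth limits Aldh1a2, at 3 to 25 counts, most.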
